A study of Homo sapiens with 12 samples.

Results

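The HepG2 line that carries the CRISPR construct Z5 was compared, gene by gene, with the HepG2 line that carries an empty CRISPR vector. The members were chosen by column: 3 libraries of the Z5 line and 3 of the control line, 6 of the 12 libraries of the series. Of 26485 genes in the count table, 15289 passed a filter on low counts and were tested. The series sequenced RNA from 4 stable lines of HepG2, an established human hepatoma line, each seeded in 3 wells. The control line, Empty, received an empty CRISPR construct, and its genotype is labelled WT. The Z5 line received the construct sgZHX3-5, directed at ZHX3, and its genotype is labelled ZHX3-depleted. The other two labelled lines, Z2 and Z9, received sgZHX3-2 and sgZHX3-9 and were not pooled with Z5. All lines were grown in low-glucose DMEM with serum, transfected by lipofection and put under blasticidin selection after it. The sources used here do not say whether a line is 1 clone or a pool of cells, nor the position and sequence of its guide. Z5 and Empty are 1 line each, so a p-value here weighs a difference against well-to-well spread, with no account of how independently made lines would vary, and an effect of the guide cannot be told apart from other differences between these 2 lines.

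ZHX3 belongs to the zinc-finger and homeobox family, whose members ZHX1, ZHX2 and ZHX3 form dimers, interact with the A subunit of the CCAAT-binding factor NF-Y and act mainly as transcriptional repressors. In liver, ZHX2 is known as a postnatal repressor of alpha-fetoprotein and other fetal genes. HepG2 cells keep much of a hepatocyte's programme: they secrete albumin, fibrinogen, complement and apolipoproteins, and they divide, as hepatocytes of the adult liver rarely do.

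Library totals were 50864744 to 65428204 counts in Empty and 52500477 to 58036721 in Z5. Levels are given as CPM, counts scaled to the size of the library. Values of 3 wells stand in the order a, b, c, and ± after a mean is the SD over 3 wells. ZHX3, the gene named by the construct, measured 33.0, 32.7 and 33.5 CPM in Empty and 33.5, 32.5 and 32.8 CPM in Z5. The wells of the 2 lines overlapped, and ZHX3 did not pass the test (log2 fold change -0.0040 ± 0.050 (SE), edgeR adjusted p = 0.972). Its 95% interval ran from 0.927-fold to 1.07-fold, and a gene-level count shows neither the sequence at the guide's target nor the amount of protein. ZHX2 measured 128, 138 and 141 CPM in Empty and 106, 110.4 and 109 CPM in Z5. All Z5 wells lay below all Empty wells, and ZHX2 fell (log2 fold change -0.32 ± 0.061 (SE), edgeR adjusted p = 0.00158). ZHX1 measured 36.1, 32.1 and 36.5 CPM in Empty and 38.2, 37.6 and 34.8 CPM in Z5 and was not called (log2 fold change 0.080 ± 0.067, edgeR adjusted p = 0.466). The list of ZHX and NF-Y genes had 7 tested members, of which 0 rose and 1, ZHX2, fell.

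All 14 hepatoma markers were detected in every well, and together they took 66993 to 68926 CPM in Empty and 64552 to 65611 CPM in Z5. Of these 14, 3 rose and 3 fell (21.4% each way, against 8.27% and 6.68% of all genes tested). Only the call of ALB was kept in each of 6 fits that left out 1 well. Of 10 fibroblast or stellate markers, DCN and LUM had 0 counts in all 6 wells. Others were detected: PDGFRB had 1272 to 1622 counts per well, ACTA2 1101 to 1455 and TAGLN 814 to 2674. The list summed to 79.4 to 91.9 CPM in Empty and 64.0 to 71.2 CPM in Z5. Of 8 endothelial markers, KDR and EMCN had 0 counts in all 6 wells, while PECAM1 had 236 to 335 counts per well. The endothelial list summed to 6.39 to 6.65 CPM in Empty and 6.67 to 7.02 CPM in Z5. Of 10 leukocyte markers, MS4A1 and TYROBP had 0 counts in all 6 wells and PTPRC at most 2, while CD68 had 2167 to 3596. The leukocyte list summed to 1817 to 1988 CPM in Empty and 2029 to 2138 CPM in Z5, nearly all of it from LYZ, the lysozyme gene. Of the tested members of these 3 lists, 4, 4 and 5 in that order, TAGLN fell and CDH5 rose, and no other passed the test.

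The first question was how much of the transcriptome differed between the Z5 and Empty wells. With edgeR's quasi-likelihood test at an adjusted p under 0.05, 2286 of 15289 genes were called, which is 15%. Of these, 1264 were higher in Z5 (8.27%) and 1022 were lower (6.68%). The falls numbered 425 without Z5 c, 426 without Z5 b, 650 without Empty b and 418 without Empty a, and the rises 662 without Z5 c, 720 without Z5 b and 687 without Empty a. The median log2 fold change was 0.46 over the genes called higher and -0.32 over those called lower, against 0.0035 over all genes tested. Called genes that changed 2-fold or more numbered 318 (2.08%), 245 higher (1.6%) and 73 lower (0.477%). In 1249 of the genes called higher and 1001 of those called lower, the wells of the 2 lines did not overlap. Without overlap were 38.4% of all genes tested. Nearly all called genes thus lacked overlap, so lack of overlap in a called gene below adds no separate support to its call. A principal component with 53.2% of the variance of the 6 wells placed Empty between -29.0 and -18 and Z5 between 16.5 and 26.6. The number of calls depended on single wells: it was 1087 without Z5 c, 1146 without Z5 b and 1105 without Empty a. In each of the 6 fits with 1 well left out, 899 genes were called in the same direction (5.88%), 573 higher (3.75%) and 326 lower (2.13%), and these are the calls named below as kept.

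**Figure D1:**
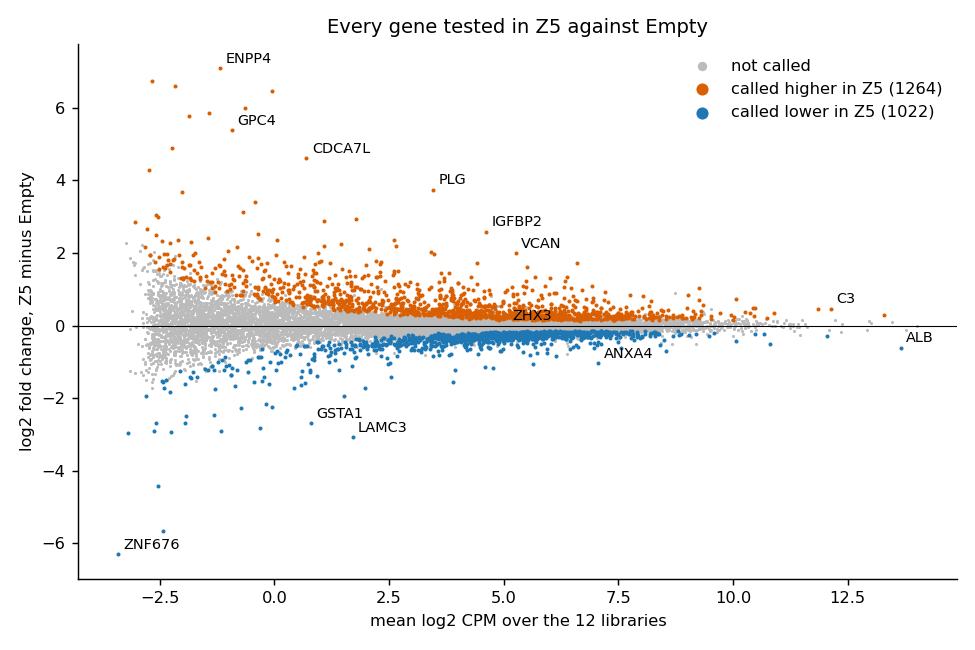
Log2 fold change of Z5 against Empty (vertical) by mean log2 CPM over the 12 libraries (horizontal), 1 point per gene tested. The 1264 genes called higher and the 1022 called lower are coloured; the changes furthest from 0 lie among genes with low levels, while ZHX3 lies at -0.0040 and the highly expressed ALB at -0.61.

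Calls came from all levels of expression, with the smallest share in the lowest quartile, while most called changes of 2-fold or more lay there. By quartile of the mean level, from the lowest to the highest, 9.31%, 17.3%, 16.5% and 16.7% of genes were called. In the lowest quartile 162 genes rose and 59 fell 2-fold or more. In the highest quartile, 9 rose and 1 fell by that much. At low counts a small change rarely passes the test, so these counts do not show how change depends on level. Protein-coding genes made up most of the calls, with 1170 higher and 988 lower of 13359 tested. Long noncoding RNAs had 54 higher and 14 lower of 935 tested, which is 5.78% and 1.5%.

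Changes were ranked among called protein-coding genes with a mean log2 CPM of 1 or more, and the 15 largest each way were taken. That mean is over the 12 libraries, so levels in Z2 and Z9 also set which genes pass the floor. Genes below that floor can have larger fitted changes than ranked genes, as CDCA7L does among the rises and GSTA1 among the falls. Above the floor, the largest rises included secreted proteins and growth factor ligands. PLG encodes plasminogen, the precursor of the protease that dissolves fibrin, and measured 1.69, 1.13 and 2.18 CPM in Empty and 20.5, 23.4 and 23.3 CPM in Z5. Every Z5 well was above every Empty well, and the change was 13.4-fold with a 95% interval of 10.8 to 16.5 (log2 fold change 3.74 ± 0.14 (SE), edgeR adjusted p = 5.9e-11). IGFBP2, an insulin-like growth factor binding protein, measured 5.95, 7.38 and 6.16 CPM in Empty and 33.7, 39.2 and 44.2 CPM in Z5, and the groups did not overlap (log2 fold change 2.59 ± 0.17 (SE), edgeR adjusted p = 1.6e-06). EREG, the EGF receptor ligand epiregulin, measured 0.628, 0.711 and 0.505 CPM in Empty and 2.88, 2.82 and 2.75 CPM in Z5. The Empty wells were all under 1 CPM and the Z5 wells all above 2.7 CPM (log2 fold change 2.20 ± 0.21 (SE), edgeR adjusted p = 1.5e-06). APCDD1, a membrane inhibitor of WNT signalling, measured 0.549, 0.329 and 0.551 CPM in Empty and 3.67, 3.20 and 3.68 CPM in Z5, again without overlap (log2 fold change 2.88 ± 0.17 (SE), edgeR adjusted p = 4.9e-09).

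Matrix and adhesion genes were also among the largest rises. VCAN, the chondroitin sulfate proteoglycan versican, measured 12.2, 13.2 and 13.6 CPM in Empty and 53.2, 50.8 and 51.3 CPM in Z5. The wells of each line were close together and the lines well apart, with a 3.97-fold change and a 95% interval of 3.63 to 4.35 (log2 fold change 1.99 ± 0.062 (SE), edgeR adjusted p = 9.8e-13). SDK1, a cell adhesion protein of the immunoglobulin family, measured 3.61, 4.02 and 3.97 CPM in Empty and 13.5, 15.8 and 16.3 CPM in Z5 (log2 fold change 1.97 ± 0.11 (SE), edgeR adjusted p = 1.7e-09). ADAMTS2, the enzyme that removes the amino-terminal propeptide of procollagen, measured 1.77, 2.62 and 1.78 CPM in Empty and 7.06, 6.81 and 7.15 CPM in Z5 (log2 fold change 1.77 ± 0.13 (SE), edgeR adjusted p = 9.3e-08). In both genes the lowest Z5 well was above the highest Empty well.

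Several enzymes, carriers and regulators rose by similar factors. NDUFA4L2, a mitochondrial protein known as a hypoxia-induced gene, measured 0.589, 0.745 and 0.888 CPM in Empty and 5.25, 5.81 and 6.35 CPM in Z5 (log2 fold change 2.95 ± 0.18 (SE), edgeR adjusted p = 8.4e-09). PLA2G16, a phospholipase that acts on membrane lipids, measured 1.69, 2.03 and 1.79 CPM in Empty and 8.14, 8.67 and 11.7 CPM in Z5 (log2 fold change 2.37 ± 0.15 (SE), edgeR adjusted p = 1.9e-08). SLC19A3, a thiamine transporter, measured 3.77, 3.92 and 3.95 CPM in Empty and 15.9, 14.4 and 16.7 CPM in Z5 (log2 fold change 2.01 ± 0.085 (SE), edgeR adjusted p = 5.9e-11). The groups did not overlap in any of these 3 genes, and Z5 c was the highest well in each. G6PC, the catalytic subunit of glucose-6-phosphatase, which releases glucose from the liver, measured 2.26, 2.34 and 2.07 CPM in Empty and 5.11, 8.19 and 9.29 CPM in Z5. Z5 a was lower than the other Z5 wells, yet above all Empty wells (log2 fold change 1.76 ± 0.19 (SE), edgeR adjusted p = 1.9e-05). SETBP1, whose product binds the SET protein, rose by 2.24 ± 0.19 on the log2 scale, ABLIM3, an actin-binding LIM protein, by 2.18 ± 0.13, PRKD1, protein kinase D1, by 2.11 ± 0.15, and NKX2-5, a homeobox gene best known from heart development, by 1.77 ± 0.20. The edgeR adjusted p of these 4 lay between 5.2e-09 and 7.9e-06, and all 15 of the largest rises above the floor were kept with any 1 well left out.

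**Figure D2:**
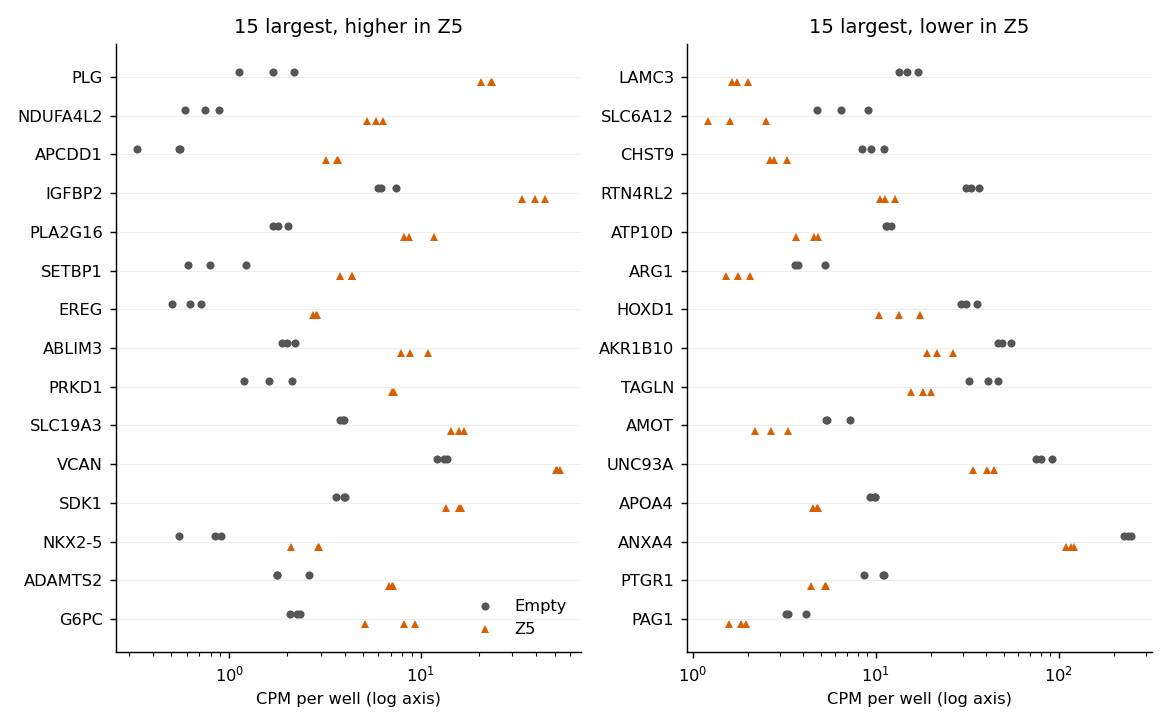
CPM of every well, on a log axis, for the 15 protein-coding genes with the largest rise and the 15 with the largest fall in Z5 among called genes whose mean log2 CPM was 1 or more; grey circles are Empty wells and orange triangles Z5 wells. The wells of the 2 lines do not overlap in any of these 30 genes, from PLG, with 1.13 to 2.18 CPM in Empty and 20.5 to 23.4 CPM in Z5, to LAMC3, with 13.4 to 16.9 CPM in Empty and 1.63 to 2.00 CPM in Z5. The genes were chosen as called and most changed, which makes overlap unlikely, so its lack adds no separate support.

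Among the largest falls above the floor, LAMC3, the gamma-3 chain of laminins, which build basement membranes, measured 13.4, 14.8 and 16.9 CPM in Empty and 1.74, 1.63 and 2.00 CPM in Z5. The change was 0.119-fold, with a 95% interval of 0.0972 to 0.146 (log2 fold change -3.07 ± 0.14 (SE), edgeR adjusted p = 1.4e-10). CHST9, a sulfotransferase of N-acetylgalactosamine, measured 11.1, 9.39 and 8.45 CPM in Empty and 3.27, 2.65 and 2.77 CPM in Z5 (log2 fold change -1.73 ± 0.18 (SE), edgeR adjusted p = 6.6e-06). Both genes were lower in every Z5 well than in any Empty well. RTN4RL2, a receptor of the Nogo family, measured 33.3, 36.7 and 31.1 CPM in Empty and 10.6, 11.2 and 12.8 CPM in Z5 (log2 fold change -1.55 ± 0.11 (SE), edgeR adjusted p = 1.9e-07). ATP10D, a flippase of membrane lipids, measured 12.1, 11.6 and 11.4 CPM in Empty and 4.80, 4.57 and 3.68 CPM in Z5 (log2 fold change -1.43 ± 0.11 (SE), edgeR adjusted p = 1.9e-07). The spread within each line was small beside the difference in both.

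Liver enzymes and secreted proteins were among the falls as well. ARG1, the arginase of the urea cycle, measured 5.28, 3.62 and 3.74 CPM in Empty and 2.05, 1.77 and 1.53 CPM in Z5 (log2 fold change -1.24 ± 0.20 (SE), edgeR adjusted p = 4.2e-04). AKR1B10, an aldo-keto reductase that is often raised in hepatocellular carcinoma, measured 54.8, 46.4 and 49.2 CPM in Empty and 26.4, 21.7 and 19.1 CPM in Z5 (log2 fold change -1.16 ± 0.12 (SE), edgeR adjusted p = 2.8e-05). PTGR1, a prostaglandin reductase, measured 10.9, 11.1 and 8.61 CPM in Empty and 5.30, 5.32 and 4.42 CPM in Z5 (log2 fold change -1.03 ± 0.12 (SE), edgeR adjusted p = 1.3e-05). Every Empty well lay above every Z5 well in each of the 3 genes. APOA4, an apolipoprotein of triglyceride-rich particles, measured 9.32, 9.90 and 9.91 CPM in Empty and 4.80, 4.55 and 4.75 CPM in Z5 (log2 fold change -1.05 ± 0.097 (SE), edgeR adjusted p = 9.8e-07). ANXA4, a calcium-dependent membrane-binding annexin, measured 249, 239 and 226 CPM in Empty and 121, 109.6 and 117 CPM in Z5. It was about as low in every Z5 well, with a 0.488-fold change and a 95% interval of 0.443 to 0.536 (log2 fold change -1.04 ± 0.065 (SE), edgeR adjusted p = 8.6e-09).

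Regulators of the cytoskeleton, of the Hippo pathway and of patterning completed the falls. TAGLN, the actin-binding protein transgelin, measured 40.8, 46.3 and 32.5 CPM in Empty and 20.01, 15.6 and 18.2 CPM in Z5 (log2 fold change -1.15 ± 0.16 (SE), edgeR adjusted p = 6.7e-04). AMOT, angiomotin, which binds YAP, measured 7.20, 5.44 and 5.35 CPM in Empty and 3.32, 2.19 and 2.68 CPM in Z5 (log2 fold change -1.13 ± 0.16 (SE), edgeR adjusted p = 1.2e-04). HOXD1, a homeobox gene, measured 35.6, 29.1 and 31.2 CPM in Empty and 17.4, 13.5 and 10.4 CPM in Z5 (log2 fold change -1.21 ± 0.22 (SE), edgeR adjusted p = 0.00464). The groups did not overlap in these 3, and Z5 a was the highest Z5 well in each. UNC93A, a membrane protein, changed by -1.06 ± 0.16 on the log2 scale, and PAG1, an adaptor that holds the kinase CSK at the membrane, by -0.99 ± 0.18 (edgeR adjusted p = 0.00159 and 9.2e-04). SLC6A12, a betaine and GABA transporter, measured 9.03, 4.78 and 6.49 CPM in Empty and 2.50, 1.59 and 1.21 CPM in Z5 (log2 fold change -1.93 ± 0.47 (SE), edgeR adjusted p = 0.0235), with wells that did not overlap but varied widely. Its call was lost without Empty a, Z5 b or Z5 c, with an edgeR adjusted p of up to 0.0990, while the calls of the other 14 genes were kept.

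Some genes were close to absent in 1 of the 2 lines. ENPP4, an enzyme that cleaves extracellular nucleotides, had 0, 0 and 1 counts in Empty and 76, 33 and 74 in Z5. Its count ratio, adjusted for library size, was 189.6, with a 95% counting interval of 33.6 to 7529 that covers counting error only. CSMD1, a large membrane protein with complement-control domains, had 2 counts in all Empty wells together and 133 in Z5, a ratio of 68.9 (18.7 to 575). FGF13, an intracellular member of the fibroblast growth factor family, had 2 and 68 counts, a ratio of 35.2 (9.38 to 297), and the noncoding LINC00839 had 1 and 73, a ratio of 75.6 (13.2 to 3028). In the opposite direction ZNF676, a zinc-finger gene, had 32, 38 and 43 counts in Empty and 1, 0 and 0 in Z5, so that Empty was 109.1 times higher (19.2 to 4346). These 5 genes were chosen for total counts under a low limit in 1 line and over a higher limit in the other. Their wells did not overlap, but that choice makes overlap unlikely, so the lack of overlap adds no separate support.

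A few list members with low counts in 1 line did not meet these limits. CDCA7L, whose product binds MYC and belongs to a family linked to DNA methylation, had 27 counts in Empty and 645 in Z5, a ratio of 24.7 with a counting interval of 16.9 to 37.9 (log2 fold change 4.62 ± 0.24 (SE), edgeR adjusted p = 8.3e-10). GPC4, a heparan sulfate proteoglycan of the cell surface, had 6 counts in Empty and 256 in Z5, a ratio of 44.2 (20.03 to 122). INSIG1, which holds the SREBP pathway in the endoplasmic reticulum, had 5 counts in Empty, all of them in Empty a, and 66 in Z5, a ratio of 13.7 (5.57 to 43.5). SNAI2, a transcriptional repressor of the mesenchymal transition, had 115 counts in Empty and 17 in Z5, and Empty was 6.53 times higher (3.91 to 11.6). INSIG1 and SNAI2 stayed under 1 CPM in every well of both lines.

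Cell division genes were lower in Z5 as a group. Of 50 mitosis genes tested, 0 rose and 32 fell, with a median log2 fold change of -0.33, against 8.27% higher and 6.68% lower over all genes. MKI67, a marker of dividing cells that coats mitotic chromosomes, measured 74.5, 66.2 and 61.6 CPM in Empty and 52.5, 46.3 and 47.9 CPM in Z5 (log2 fold change -0.46 ± 0.078 (SE), edgeR adjusted p = 6.7e-04). ESPL1, the separase that cuts cohesin at anaphase, measured 17.1, 14.6 and 13.97 CPM in Empty and 11.7, 10.7 and 9.59 CPM in Z5 (log2 fold change -0.51 ± 0.089 (SE), edgeR adjusted p = 8.7e-04). All Z5 wells were below all Empty wells in both. KIF2C, a kinesin that depolymerises microtubules, changed by -0.36 ± 0.071, CDCA8, borealin of the chromosomal passenger complex, by -0.37 ± 0.077, and ASPM, a spindle pole protein, by -0.41 ± 0.093, with edgeR adjusted p of 0.00205, 0.00338 and 0.00707. CDC20, the activator of the anaphase-promoting complex, changed by -0.36, and its call was lost without Empty a or Z5 b (edgeR adjusted p up to 0.0509). The count of mitosis genes called lower was 6 without Z5 c, 7 without Z5 b, 21 without Empty b and 5 without Empty a. It was higher, at 38 without Z5 a and 40 without Empty c, and 5 calls were kept in all 6 fits. The mean level of the list, in log2 CPM centred over the 12 wells, was 0.40, 0.25 and 0.13 in Empty and 0.079, -0.13 and -0.15 in Z5, so that Empty a stood highest and Z5 a came close to Empty c.

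Genes of S phase and DNA replication fell as well. Of 49 tested, 0 rose (against 8.27% of all genes) and 27 fell (55.1%, against 6.68%), with a median of -0.33. CHAF1A, a histone chaperone that works behind the replication fork, measured 31.1, 25.0 and 24.2 CPM in Empty and 18.4, 14.9 and 17.2 CPM in Z5 (log2 fold change -0.67 ± 0.11 (SE), edgeR adjusted p = 9.2e-04). CDC6, which loads the MCM helicase at origins, measured 50.03, 38.0 and 37.9 CPM in Empty and 31.3, 23.9 and 22.5 CPM in Z5 (log2 fold change -0.69 ± 0.13 (SE), edgeR adjusted p = 0.00288). Neither gene had overlapping wells. CDC45, a part of the active helicase, changed by -0.62 ± 0.13, POLE, the catalytic subunit of the leading-strand polymerase, by -0.39 ± 0.084, and MCM3, a helicase subunit, by -0.45 ± 0.098, with edgeR adjusted p of 0.00327, 0.00510 and 0.00710. MCM3 was no longer past the threshold in a fit of the 2 lines only (edgeR adjusted p = 0.0645). The count of calls was 9 without Z5 c, 7 without Z5 b, 7 without Empty a and 19 without Empty b. It was 28 without Z5 a and 33 without Empty c, with 6 kept in all 6 fits. The mean level of the list was 0.44, 0.22 and 0.069 in Empty and 0.042, -0.18 and -0.13 in Z5. Replication-dependent histones did not follow: of 20 tested, 5 rose and 0 fell, 1 of them kept (HIST1H2BK, log2 fold change 1.02 ± 0.14 (SE), edgeR adjusted p = 8.7e-05). The count of histone rises was 2 without Z5 c, 2 without Z5 b, 3 without Empty b and 1 without Empty a. Their counts are uncertain, because histone genes share sequence and most of their mRNA lacks a poly(A) tail. Of 30 p53 targets, 1 rose (3.33%) and 5 fell (16.7%), with 0 and 1 kept, and the falls numbered 1 without Z5 c, 1 without Z5 b and 1 without Empty a. GDF15, a stress-induced growth factor family member, measured 1275, 1410.1 and 1136 CPM in Empty and 964, 874 and 988 CPM in Z5 (log2 fold change -0.43 ± 0.088 (SE), edgeR adjusted p = 0.00329).

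**Figure D3:**
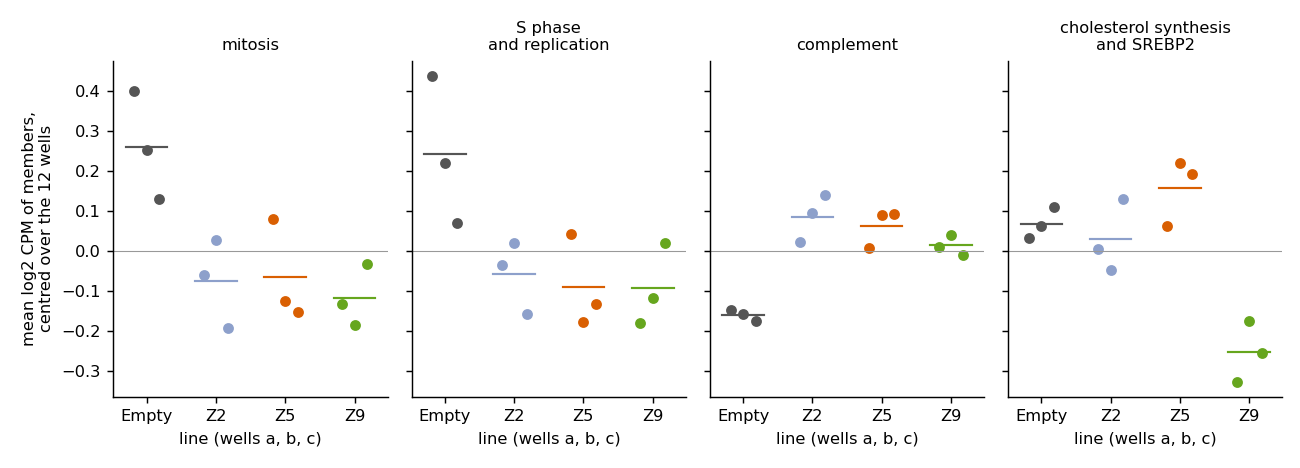
Mean log2 CPM of the members of 4 gene lists in each well of the 4 lines, centred over the 12 wells; points are wells a, b and c from left to right and bars the mean of a line. Mitosis and S phase genes lie highest in Empty a (0.40 and 0.44), complement genes lie lowest in the Empty wells (-0.18 to -0.15) and cholesterol synthesis genes lowest in Z9 (-0.33 to -0.18).

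Many promoters of cell cycle genes carry a CCAAT box, the site that NF-Y binds, next to a TTTGAA element known as the cell cycle genes homology region. Because mitosis genes fell together, the promoters of the 4 with the smallest p are shown, as 300-base windows around the annotated gene start from RefSeq (GRCh38.p14), 5′ to 3′ on the strand of the gene. They lie at chr10:128126374-128126673 (minus strand) for MKI67, chr12:53268049-53268348 (plus) for ESPL1, chr1:44739587-44739886 (plus) for KIF2C and chr1:37692266-37692565 (plus) for CDCA8. Capitals mark CCAAT or its reverse complement ATTGG, and TTTGAA or TTCAAA.
MKI67: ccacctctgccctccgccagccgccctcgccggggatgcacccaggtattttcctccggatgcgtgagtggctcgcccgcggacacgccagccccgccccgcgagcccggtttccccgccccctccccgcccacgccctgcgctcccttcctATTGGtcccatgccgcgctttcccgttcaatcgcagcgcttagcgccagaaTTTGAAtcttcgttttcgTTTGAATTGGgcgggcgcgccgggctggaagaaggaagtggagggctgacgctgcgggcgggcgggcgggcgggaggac
ESPL1: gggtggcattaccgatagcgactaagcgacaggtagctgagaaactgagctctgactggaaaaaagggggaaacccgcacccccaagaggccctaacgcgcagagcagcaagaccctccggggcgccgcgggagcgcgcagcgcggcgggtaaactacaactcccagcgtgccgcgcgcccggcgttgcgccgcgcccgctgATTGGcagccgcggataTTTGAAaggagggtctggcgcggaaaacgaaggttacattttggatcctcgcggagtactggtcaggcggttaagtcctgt
KIF2C: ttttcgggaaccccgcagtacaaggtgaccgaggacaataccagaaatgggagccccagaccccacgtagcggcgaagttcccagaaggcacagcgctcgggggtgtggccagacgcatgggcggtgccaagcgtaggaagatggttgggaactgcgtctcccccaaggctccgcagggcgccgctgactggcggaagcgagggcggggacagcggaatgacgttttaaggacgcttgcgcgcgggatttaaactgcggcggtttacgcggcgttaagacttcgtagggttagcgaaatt
CDCA8: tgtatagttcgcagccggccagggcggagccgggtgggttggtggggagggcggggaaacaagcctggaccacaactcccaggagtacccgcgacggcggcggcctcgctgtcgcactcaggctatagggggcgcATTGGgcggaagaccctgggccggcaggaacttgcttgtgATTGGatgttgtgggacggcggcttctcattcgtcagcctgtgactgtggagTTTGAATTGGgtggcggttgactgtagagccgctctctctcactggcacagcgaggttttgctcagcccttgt
In this window MKI67 held 2 CCAAT boxes, all on the reverse strand, and 2 TTTGAA matches, CDCA8 held 3 and 1, ESPL1 held 1 and 1, and KIF2C held neither. In MKI67 and CDCA8 a TTTGAA and an ATTGG shared 1 base. Of 43 mitosis members with a promoter in the table, 33 (76.7%) held CCAAT on either strand, against 35.7% of all 27305 promoters in the table, and 29 (67.4%) held TTTGAA, against 15.4%. Of 42 S phase members, 23 (54.8%) held CCAAT and 1 (2.38%) held TTTGAA. The 27305 promoters include those of genes not tested here. Of the tested genes 11637 had a promoter in the table, and the shares over these are not given. A match describes these letters only, and no binding was measured.

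Many genes of secreted plasma proteins rose. Of 23 complement genes tested, 12 rose (52.2%, against 8.27% of all genes) and 1 fell (4.35%, against 6.68%). The median was 0.23, and 8 of the rises were kept. C3, the component at which the pathways of complement meet, measured 3396, 3534 and 3669 CPM in Empty and 4481, 4942 and 5243 CPM in Z5 (log2 fold change 0.47 ± 0.072 (SE), edgeR adjusted p = 2.7e-04). C8B, a chain of the membrane attack complex, measured 4.79, 4.78 and 5.74 CPM in Empty and 10.1, 10.2 and 10.1 CPM in Z5 (log2 fold change 0.99 ± 0.091 (SE), edgeR adjusted p = 9.6e-07). All Z5 wells were above all Empty wells in both, and the C8B level was nearly the same in the 3 Z5 wells. CFI, a protease that inactivates C3b, rose by 0.48 ± 0.051, CLU, a chaperone and inhibitor of the membrane attack complex, by 0.42 ± 0.059, SERPING1, the C1 inhibitor, by 0.64 ± 0.099, and CFB, the protease of the alternative pathway, by 0.44 ± 0.075, with edgeR adjusted p of 4.3e-06 to 7.8e-04. The gene that fell, C6, measured 2.00, 1.61 and 1.30 CPM in Empty and 0.930, 0.787 and 0.736 CPM in Z5, and its call was not kept, nor was it named by the rule. Components and inhibitors of the cascade thus both rose, and the count of 12 moved by no more than 1.5 times with any well left out (8 to 13).

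Of 31 coagulation and fibrinolysis genes, 9 rose (29%, against 8.27% of all genes) and 2 fell (6.45%, near the 6.68% of all genes). The median was 0.15, and 4 and 1 were kept. Beside PLG, the fibrinogen chains FGA (1027, 1022 and 1213 CPM in Empty and 1466, 1537 and 1572 CPM in Z5) and FGG (979, 927 and 1089.5 CPM in Empty and 1292, 1327 and 1272 CPM in Z5) rose, with edgeR adjusted p of 8.3e-05 and 3.8e-04. In both, the 3 Z5 wells lay above the 3 Empty wells. CPB2, a carboxypeptidase that slows fibrinolysis, rose by 0.59 ± 0.093, and KNG1, kininogen, changed by -0.72 (edgeR adjusted p = 5.7e-04 and 0.00616). The count of rises was 4 without Z5 c, 4 without Z5 b, 5 without Empty b and 4 without Empty a. Of 28 genes of the acute phase and of IL6 or NF-kB signalling, 9 rose (32.1%) and 1 fell (3.57%), with a median of 0.13 and 5 rises kept. SERPINA3, an acute phase inhibitor of proteases, measured 677, 663 and 825 CPM in Empty and 1115, 1217 and 1232 CPM in Z5 (log2 fold change 0.72 ± 0.078 (SE), edgeR adjusted p = 6.6e-06), and SOCS3, a feedback inhibitor of IL6 signalling, measured 1.71, 2.29 and 2.05 CPM in Empty and 3.36, 3.07 and 4.35 CPM in Z5 (log2 fold change 0.83 ± 0.16 (SE), edgeR adjusted p = 0.00153). Neither gene had overlapping wells.

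Carrier proteins moved in both directions. Of 25 tested, 8 rose (32%, against 8.27% of all genes) and 3 fell (12%, against 6.68%), with a median of 0.089 and 6 and 2 kept. ALB, albumin, measured 18437, 17208 and 16944 CPM in Empty and 12191, 10971 and 11278 CPM in Z5. Every Z5 well was below every Empty well, and the change was 0.655-fold, with a 95% interval of 0.594 to 0.722 (log2 fold change -0.61 ± 0.066 (SE), edgeR adjusted p = 5.9e-06). AFP, the fetal counterpart, measured 11503, 10648 and 10610.2 CPM in Empty and 12122, 11769 and 11396 CPM in Z5 and was not called (log2 fold change 0.11 ± 0.071, edgeR adjusted p = 0.343). SERPINA1, alpha-1 antitrypsin, measured 8178, 8785 and 9228 CPM in Empty and 10108, 10800.4 and 11261 CPM in Z5 (log2 fold change 0.30 ± 0.077 (SE), edgeR adjusted p = 0.0155), without overlap. Its call was lost without Empty a, Z5 b or Z5 c, with an edgeR adjusted p of up to 0.0967. VTN, vitronectin of plasma and matrix, rose by 0.67 ± 0.061, CP, the copper carrier ceruloplasmin, by 0.70 ± 0.099, HP, the haemoglobin-binding haptoglobin, by 0.60 ± 0.078, and AGT, angiotensinogen, by 0.47 ± 0.064 (edgeR adjusted p = 7.7e-07 to 2.6e-04). HPX, which binds free haem, measured 21.2, 17.1 and 18.7 CPM in Empty and 12.1, 10.0 and 10.1 CPM in Z5 and fell (log2 fold change -0.82 ± 0.14 (SE), edgeR adjusted p = 0.00121).

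Of 29 apolipoproteins and lipoprotein handling genes, 9 rose (31%, against 8.27% of all genes) and 4 fell (13.8%, against 6.68%). The median was 0.088, and 4 and 3 were kept. VLDLR, a receptor for triglyceride-rich lipoproteins, measured 28.6, 27.9 and 33.7 CPM in Empty and 55.9, 62.5 and 59.3 CPM in Z5, without overlap (log2 fold change 0.98 ± 0.089 (SE), edgeR adjusted p = 1.7e-06). MTTP, which loads lipid onto apolipoprotein B, rose by 0.44 ± 0.067, LRP1, a large endocytic receptor, by 0.30 ± 0.058, and ANGPTL4, an inhibitor of lipoprotein lipase, by 0.73 ± 0.14 (edgeR adjusted p = 2.5e-04 to 0.00338). C19orf80, also known as ANGPTL8, fell along with APOA4 (log2 fold change -0.58 ± 0.099 (SE), edgeR adjusted p = 8.8e-04). The count of rises was 4 without Z5 c, 5 without Z5 b, 5 without Empty b and 4 without Empty a.

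**Figure D4:**
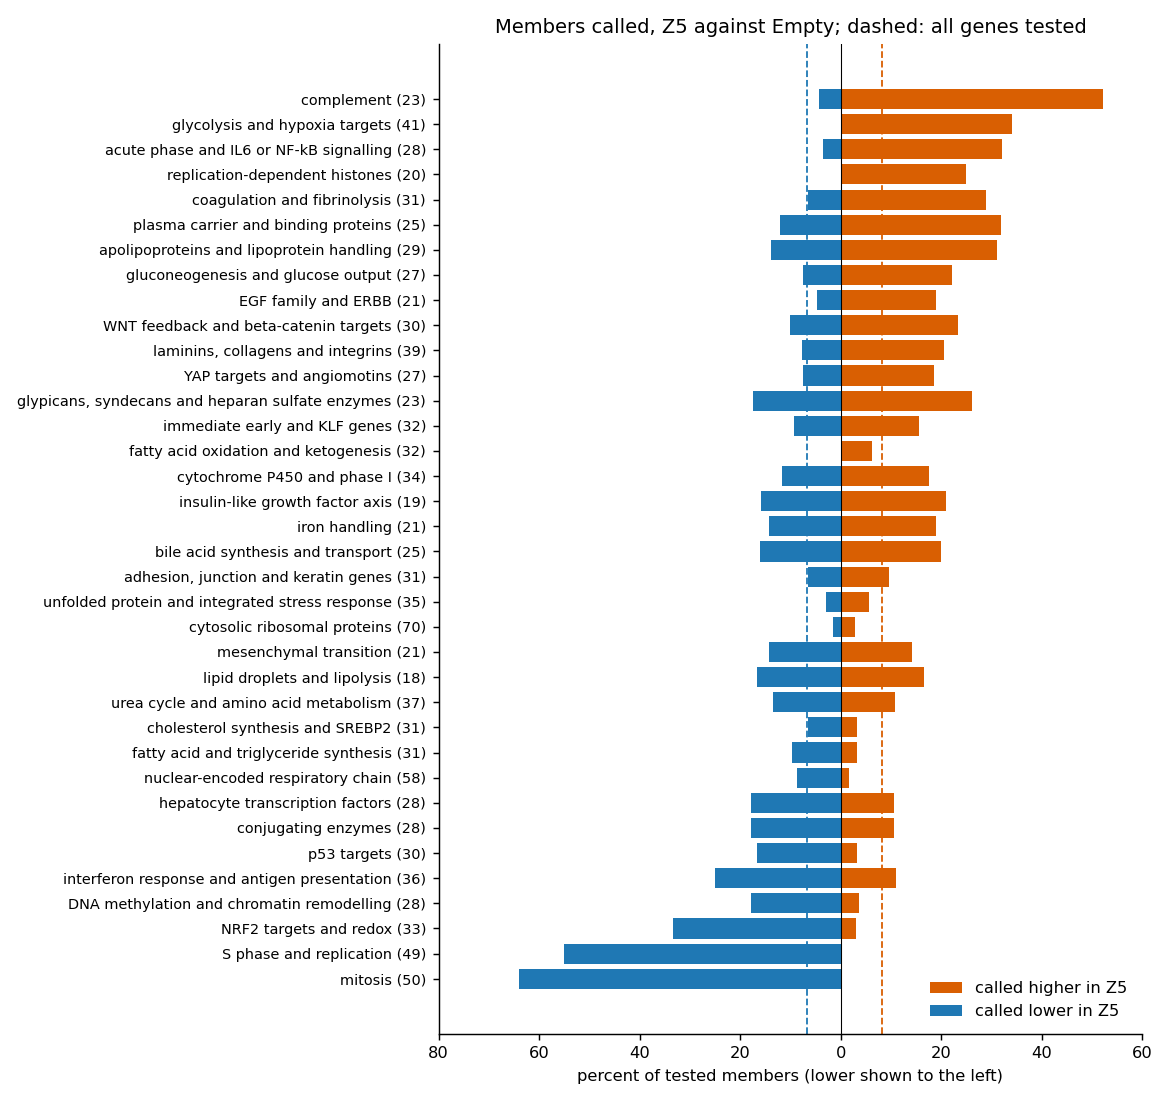
Percent of the tested members of each gene list called higher (orange, to the right) or lower (blue, to the left) in Z5 against Empty, for lists with at least 18 tested members, whose number stands in brackets. Dashed lines mark all genes tested (8.27% and 6.68%); complement has 12 of 23 called higher and mitosis 32 of 50 called lower.

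In carbohydrate metabolism, 14 of 41 glycolysis genes and hypoxia targets rose (34.1%) and 0 fell, with a median of 0.13 and 6 kept. Over all genes tested, 8.27% rose and 6.68% fell. EGLN3, an oxygen-sensing prolyl hydroxylase that is itself a target of HIF, measured 37.8, 46.8 and 39.9 CPM in Empty and 85.4, 101 and 105 CPM in Z5 (log2 fold change 1.22 ± 0.13 (SE), edgeR adjusted p = 6.9e-05). HK1, a hexokinase of low level in hepatocytes, measured 7.10, 7.001 and 6.14 CPM in Empty and 12.4, 12.8 and 14.5 CPM in Z5 (log2 fold change 0.97 ± 0.085 (SE), edgeR adjusted p = 5.2e-07). The wells did not overlap in either gene. SLC2A1, the glucose transporter GLUT1, rose by 0.35 ± 0.067, P4HA2, a collagen prolyl hydroxylase, by 0.30 ± 0.058, and PDK1, which restrains pyruvate dehydrogenase, by 0.31 ± 0.068 (edgeR adjusted p = 0.00205 to 0.00485). The count of rises was 7 without Z5 c, 8 without Z5 b and 7 without Empty a. Enzymes at the core of glycolysis such as PGAM1, ENO1 and LDHA were not called, and the list held 10 members with a fold change below 0, of which 0 were called. Of 27 gluconeogenesis genes, 6 rose and 2 fell, with 4 and 0 kept: beside G6PC, these were PC, pyruvate carboxylase (0.32), PPARGC1A, a coactivator of the fasting response (0.44), and TXNIP, a glucose-responsive inhibitor of thioredoxin (0.74).

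The lists of lipid metabolism differed in their share of calls. Of 31 cholesterol synthesis genes, 1 rose (3.23%, against 8.27% of all genes) and 2 fell (6.45%, near the 6.68% of all genes). The median was 0.011, and only the rise of INSIG1 was kept. Fatty acid and triglyceride synthesis had 1 rise and 3 falls among 31 (1 and 1 kept), with ELOVL5, an elongase of polyunsaturated fatty acids, at 0.48 and DGAT1, which makes triglycerides, at -0.38. Lipid droplet and lipolysis genes had 3 rises and 3 falls among 18 (16.7% each way, 2 and 3 kept). CD36, a fatty acid uptake receptor, measured 5.95, 5.63 and 5.19 CPM in Empty and 2.91, 2.84 and 3.30 CPM in Z5, and FABP5, a fatty acid binding protein, measured 33.0, 29.9 and 31.8 CPM in Empty and 24.5, 23.0 and 22.2 CPM in Z5. Both fell without overlap (edgeR adjusted p = 0.00133 and 2.3e-04). Fatty acid oxidation and ketogenesis had 2 rises and 0 falls among 32, both kept, PPARGC1A among them.

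Nitrogen, bile acid and drug metabolism had changes in both directions. Of 37 urea cycle and amino acid genes, 4 rose and 5 fell (10.8% and 13.5%), with 4 and 2 kept. Of all genes tested, 8.27% rose and 6.68% fell, and 3.75% and 2.13% were kept rises and falls. While ARG1 fell, GLUL, glutamine synthetase, rose (0.41), as did BHMT, which remethylates homocysteine (1.07), HPD of tyrosine breakdown (0.50) and the mitochondrial arginase ARG2 (0.20), and GLDC of glycine cleavage fell (-0.33). The largest edgeR adjusted p of these 5 was 0.00576, and the falls of the list numbered 2 without Z5 c, 3 without Z5 b, 3 without Empty b and 2 without Empty a. Of 25 bile acid genes, 5 rose and 4 fell, with 3 and 2 kept, and the median was -0.13. The rises numbered 3 without Z5 c, 3 without Z5 b, 3 without Empty b and 3 without Empty a, and the falls 2 without Z5 c and 2 without Empty a. BAAT, which conjugates bile acids with taurine or glycine, measured 9.32, 10.97 and 8.24 CPM in Empty and 18.2, 17.4 and 21.2 CPM in Z5 (log2 fold change 1.00 ± 0.13 (SE), edgeR adjusted p = 9.6e-05). ABCC3, an export pump of the basolateral membrane, measured 59.1, 55.7 and 57.8 CPM in Empty and 40.5, 41.2 and 41.5 CPM in Z5 (log2 fold change -0.49 ± 0.047 (SE), edgeR adjusted p = 1.7e-06). The wells of the 2 lines did not overlap in either. Of 34 cytochrome P450 and phase I genes, 6 rose and 4 fell, with 5 and 3 kept and a median of 0.23. CYP2J2, an arachidonic acid epoxygenase, measured 2.61, 2.50 and 3.11 CPM in Empty and 6.32, 6.87 and 6.08 CPM in Z5 (log2 fold change 1.22 ± 0.10 (SE), edgeR adjusted p = 4.5e-07). CES1, a liver carboxylesterase, measured 123, 109 and 110.1 CPM in Empty and 57.9, 65.4 and 68.3 CPM in Z5 (log2 fold change -0.84 ± 0.099 (SE), edgeR adjusted p = 5.5e-05). FMO5, a flavin monooxygenase, rose by 0.67 ± 0.077, and ALDH1A1, a retinaldehyde dehydrogenase, changed by -0.62 ± 0.070 (edgeR adjusted p = 1.4e-05 and 8.6e-06).

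Of 28 conjugating enzymes, 3 rose (10.7%, against 8.27% of all genes) and 5 fell (17.9%, against 6.68%), with 2 and 3 kept. The falls numbered 3 without Z5 c, 3 without Z5 b and 3 without Empty a. GSTA1, a glutathione transferase, measured 9.38, 4.61 and 5.96 CPM in Empty and 1.34, 0.844 and 0.876 CPM in Z5 (log2 fold change -2.69 ± 0.24 (SE), edgeR adjusted p = 1.7e-06), UGT2B4, a glucuronosyltransferase, measured 9.14, 7.42 and 9.51 CPM in Empty and 20.6, 19.7 and 18.4 CPM in Z5 (log2 fold change 1.17 ± 0.11 (SE), edgeR adjusted p = 1.3e-06), and UGT2B7 of the same cluster measured 47.3, 40.0 and 42.9 CPM in Empty and 27.6, 27.4 and 25.5 CPM in Z5 (log2 fold change -0.69 ± 0.072 (SE), edgeR adjusted p = 3.4e-06). None of the 3 had overlapping wells, but each belongs to a family of near-identical copies, so its level is uncertain. NRF2 targets and redox genes were lower as a group: of 33 tested, 1 rose and 11 fell, with a median of -0.15 and 7 falls kept. Beside AKR1B10 and ABCC3, NQO1, a quinone reductase, changed by -0.36 ± 0.074, PRDX1, a peroxiredoxin, by -0.40 ± 0.053, FTL, the ferritin light chain, by -0.29 ± 0.056, and SQSTM1, the autophagy receptor p62, by -0.27 ± 0.058 (edgeR adjusted p = 6.1e-05 to 0.00371). The count of falls was 7 without Z5 c, 7 without Z5 b and 7 without Empty a. Metallothioneins had 0 rises and 3 falls among 9 tested, 1 kept (MT1M, -1.84), with copies that share sequence. Iron handling had 4 rises and 3 falls among 21 (3 and 2 kept), with TFR2, a sensor of transferrin, at 0.49.

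Growth signalling genes were examined next. Of 21 EGF family and ERBB genes, 4 rose (19%, against 8.27% of all genes) and 1 fell (4.76%, against 6.68%), with 3 and 0 kept. AREG, the EGF receptor ligand amphiregulin, measured 8.28, 10.4 and 8.95 CPM in Empty and 19.2, 17.6 and 21.4 CPM in Z5 (log2 fold change 1.07 ± 0.099 (SE), edgeR adjusted p = 9.6e-07), and DUSP4, a phosphatase that limits MAP kinases, measured 2.18, 1.94 and 1.81 CPM in Empty and 3.67, 4.11 and 4.63 CPM in Z5 (log2 fold change 1.07 ± 0.13 (SE), edgeR adjusted p = 2.3e-05). Both were higher in every Z5 well, as EREG was. Of 30 WNT feedback genes and beta-catenin targets, 7 rose (23.3%) and 3 fell (10%), with 5 and 0 kept and a median of 0.037. Beside APCDD1, NOTUM, a secreted WNT deacylase, rose by 0.48 ± 0.059, KREMEN1, a DKK receptor, by 0.42 ± 0.071, and TBX3, a target of beta-catenin in liver, by 0.29 ± 0.058 (edgeR adjusted p = 1.9e-05 to 0.00304). Of 19 genes of the insulin-like growth factor axis, 4 rose and 3 fell, with 1 and 1 kept, and the rises numbered 1 without Z5 c, 1 without Z5 b, 2 without Empty c and 1 without Empty a. LIN28B, a fetal RNA-binding protein, measured 135, 124 and 119.9 CPM in Empty and 89.2, 78.3 and 75.8 CPM in Z5 (log2 fold change -0.64 ± 0.073 (SE), edgeR adjusted p = 1.1e-05). IGFBP3 measured 49.4, 60.7 and 43.2 CPM in Empty and 89.6, 105 and 121 CPM in Z5 (log2 fold change 1.04 ± 0.27 (SE), edgeR adjusted p = 0.0339), and its call was lost without any 1 of Empty a, Empty b, Empty c, Z5 b or Z5 c (edgeR adjusted p up to 0.120). Of 27 YAP targets and angiomotins, 5 rose (18.5%) and 2 fell (7.41%), and AMOT was the only call kept. The count of rises was 0 without Z5 c, 1 without Z5 b, 2 without Empty c, 2 without Empty b and 0 without Empty a. Of 32 immediate early and KLF genes, 5 rose (15.6%) and 3 fell (9.38%), with 2 and 1 kept. The rises numbered 2 without Z5 c, 2 without Z5 b and 2 without Empty a. KLF9, a glucocorticoid-responsive factor, measured 1.28, 0.988 and 1.24 CPM in Empty and 3.05, 3.68 and 3.70 CPM in Z5 (log2 fold change 1.57 ± 0.14 (SE), edgeR adjusted p = 5.9e-07), and FOSL2, an AP-1 subunit, rose by 0.39 ± 0.071 (edgeR adjusted p = 0.00121).

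Matrix, surface and adhesion lists differed in how far they departed from all genes. Of 39 laminins, collagens and integrins, 8 rose and 3 fell (20.5% and 7.69%), with 5 and 1 kept. COL2A1, a fibrillar collagen typical of cartilage, measured 23.7, 22.7 and 24.8 CPM in Empty and 46.0, 49.8 and 44.0 CPM in Z5 (log2 fold change 0.97 ± 0.090 (SE), edgeR adjusted p = 1.7e-06), and ITGA1, a collagen-binding integrin chain, measured 42.8, 49.5 and 46.0 CPM in Empty and 85.1, 96.6 and 106 CPM in Z5 (log2 fold change 1.06 ± 0.15 (SE), edgeR adjusted p = 8.1e-04). The wells did not overlap in either, while LAMC3 was the fall that was kept. The count of rises was 5 without Z5 c, 5 without Z5 b, 5 without Empty c, 5 without Empty b and 5 without Empty a. Of 23 glypicans, syndecans and heparan sulfate enzymes, 6 rose (26.1%) and 4 fell (17.4%), with 2 and 2 kept. The rises numbered 3 without Z5 c, 2 without Z5 b, 2 without Empty b and 3 without Empty a, and the falls 2 without Z5 c, 2 without Z5 b, 2 without Z5 a and 2 without Empty a. HS2ST1, a heparan sulfate sulfotransferase, changed by -0.32 ± 0.051 and GPC6, a glypican, by -0.28 ± 0.061 (edgeR adjusted p = 4.3e-04 and 0.00510). Of 31 adhesion, junction and keratin genes, 3 rose and 2 fell (9.68% and 6.45%, near the 8.27% and 6.68% of all genes), with 1 and 1 kept. CDH1, E-cadherin of epithelial junctions, measured 33.3, 36.1 and 39.4 CPM in Empty and 20.5, 24.2 and 26.0 CPM in Z5 (log2 fold change -0.62 ± 0.099 (SE), edgeR adjusted p = 4.6e-04), and CLDN6, a fetal tight junction claudin, measured 10.3, 11.005 and 9.50 CPM in Empty and 17.4, 16.8 and 18.02 CPM in Z5 (log2 fold change 0.77 ± 0.075 (SE), edgeR adjusted p = 1.7e-06). Of 21 mesenchymal transition genes, 3 rose and 3 fell (14.3% each way, against 8.27% and 6.68% of all genes), with 2 and 3 kept. SPARC, a matrix protein, measured 48.8, 43.9 and 43.1 CPM in Empty and 84.1, 79.1 and 88.2 CPM in Z5 (log2 fold change 0.89 ± 0.065 (SE), edgeR adjusted p = 7.5e-08), and MMP2, a gelatinase, measured 0.628, 0.381 and 0.582 CPM in Empty and 1.64, 1.29 and 2.07 CPM in Z5 (log2 fold change 1.65 ± 0.24 (SE), edgeR adjusted p = 1.3e-04). Both rose, while TAGLN, SNAI2 and MMP14, a membrane-bound matrix protease (-0.66), fell. TAGLN is at the same time the 1 fibroblast or stellate marker that fell. In that list DCN and LUM had 0 counts, while PDGFRB and ACTA2 were detected in every well and not called.

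Markers of cell identity changed in part. Of 28 hepatocyte transcription factors, 3 rose (10.7%, against 8.27% of all genes) and 5 fell (17.9%, against 6.68%). Of these calls 2 and 1 were kept, and the median was -0.054. The falls numbered 1 without Z5 c, 3 without Z5 b, 3 without Empty b and 1 without Empty a. NR2F1, the nuclear receptor COUP-TFI, measured 61.3, 59.8 and 63.9 CPM in Empty and 81.4, 80.7 and 78.4 CPM in Z5 (log2 fold change 0.38 ± 0.050 (SE), edgeR adjusted p = 4.9e-05), and GATA6, a factor of early endoderm, measured 7.73, 6.45 and 6.22 CPM in Empty and 4.79, 4.66 and 4.65 CPM in Z5 (log2 fold change -0.53 ± 0.11 (SE), edgeR adjusted p = 0.00288). The groups did not overlap in either gene. Of 12 tested cholangiocyte and progenitor markers, of 16 in the table, 4 rose and 0 fell, with 3 kept. SPP1, osteopontin, measured 342, 337 and 312 CPM in Empty and 646, 560.1 and 579.5 CPM in Z5 (log2 fold change 0.85 ± 0.072 (SE), edgeR adjusted p = 3.9e-07). CD24, a surface glycoprotein of progenitor cells, measured 41.2, 43.4 and 35.4 CPM in Empty and 95.2, 96.5 and 110.2 CPM in Z5 (log2 fold change 1.33 ± 0.11 (SE), edgeR adjusted p = 1.6e-06), and DLK1, a fetal hepatoblast surface protein, measured 489, 504 and 532 CPM in Empty and 698, 787 and 770.3 CPM in Z5 (log2 fold change 0.57 ± 0.068 (SE), edgeR adjusted p = 1.8e-05). All Z5 wells were above all Empty wells in these 3. Only 8 of 38 HOX genes passed the filter, and of these 0 rose and 3 fell, HOXD1, HOXC9 (-1.28) and HOXA5 (-0.66), all kept. In this bulk RNA, fewer cells of a type and less RNA per cell cannot be told apart.

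Interferon, chromatin and housekeeping lists completed the set. Of 36 genes of interferon response and antigen presentation, 4 rose (11.1%) and 9 fell (25%), with 3 and 3 kept. Over all genes tested, 8.27% rose and 6.68% fell, and 3.75% and 2.13% were kept rises and falls. IFITM1 and IFITM2, which block virus entry and share sequence with each other, rose by 1.69 ± 0.28 and 0.76 ± 0.14, and OAS3, a sensor of double-stranded RNA, changed by -0.47 ± 0.074 (edgeR adjusted p = 6.0e-04, 0.00463 and 3.1e-04). The count of falls was 3 without Z5 c, 4 without Z5 b and 3 without Empty a. DNA methylation and chromatin remodelling genes had 1 rise, CDCA7L, and 5 falls among 28, with 1 and 3 kept, and the falls numbered 3 without Z5 c, 3 without Z5 b and 3 without Empty a. DNMT1, the maintenance DNA methyltransferase, measured 107, 95.2 and 88.4 CPM in Empty and 82.2, 71.0 and 73.3 CPM in Z5 (log2 fold change -0.36 ± 0.068 (SE), edgeR adjusted p = 0.00180), and UHRF1, which guides it to replicated DNA, measured 82.2, 67.3 and 53.1 CPM in Empty and 46.3, 35.3 and 40.0 CPM in Z5 (log2 fold change -0.73 ± 0.15 (SE), edgeR adjusted p = 0.00948). Neither had overlapping wells, both are also expressed with S phase, and UHRF1 was not past the threshold in a fit of the 2 lines only (edgeR adjusted p = 0.0565). The unfolded protein and integrated stress response had 2 rises and 1 fall among 35 (1 and 0 kept), the nuclear-encoded respiratory chain 1 and 5 among 58 (1 and 1 kept; 1 without Z5 b), and cytosolic ribosomal proteins 2 and 1 among 70 (0 and 0 kept).

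Noncoding genes were ranked with the same floor of 1 in mean log2 CPM, and 4 in each direction are given. LINC00494 measured 1.71, 1.53 and 1.59 CPM in Empty and 3.03, 3.68 and 4.28 CPM in Z5 (log2 fold change 1.19 ± 0.16 (SE), edgeR adjusted p = 5.3e-05) and LINC01270 measured 1.26, 1.56 and 1.49 CPM in Empty and 3.15, 3.07 and 3.42 CPM in Z5 (log2 fold change 1.16 ± 0.14 (SE), edgeR adjusted p = 2.3e-05). In each, every Z5 well was above every Empty well. IGF2-AS measured 1.45, 1.72 and 1.99 CPM in Empty and 3.17, 4.14 and 4.19 CPM in Z5 (log2 fold change 1.15 ± 0.15 (SE), edgeR adjusted p = 6.6e-05). Its partner IGF2, which the rule does not name, measured 462, 569 and 554 CPM in Empty and 615, 693 and 764 CPM in Z5 and was not called (edgeR adjusted p = 0.0938), and with no strand setting known, reads of the 2 genes cannot be told apart with certainty. The pseudogene CNTNAP3P2 rose by 1.30 ± 0.13 (edgeR adjusted p = 2.8e-06), and it shares sequence with its parent gene. The 4 noncoding falls furthest from 0 above that floor, LINC00941 (-0.55), ZSCAN12P1 (-0.67), RRP7BP (-0.50) and APOC1P1 (-0.50), lost their calls when single wells were left out, with edgeR adjusted p of up to 0.136, 0.124, 0.0996 and 0.171. LINC00941 lost it without Empty b or Z5 c, ZSCAN12P1 without Empty a, Z5 b or Z5 c, RRP7BP without Empty a, Empty b or Z5 b, and APOC1P1 without any well but Z5 c.

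Positions of 14933 tested genes were taken from RefSeq on GRCh38.p14, and calls were counted by chromosome and in 10 Mb bins with at least 20 tested genes. By chromosome, the share called higher ran from 5.84% on chromosome 1 to 12% on chromosome 18, and the share called lower from 4.23% on chromosome 14 to 9.89% on chromosome 6. Of 249 bins, those with the lowest medians were chromosome 19 from 20 Mb (-0.13, with 1 higher and 5 lower of 30), chromosome 19 from 0 Mb (-0.11, with 10 higher and 61 lower of 231) and chromosome 1 from 60 Mb (-0.11, with 2 higher and 4 lower of 27). On chromosome 19 from 0 Mb the share called lower was 26.4%, against 6.68% of all genes tested. Among its most abundant called genes, AP3D1, a subunit of the adaptor complex AP-3, measured 268, 253 and 269 CPM in Empty and 220.4, 213 and 208 CPM in Z5, and OAZ1, an inhibitor of polyamine synthesis, measured 390.3, 369 and 377 CPM in Empty and 326, 319.5 and 312 CPM in Z5. Both were lower in every Z5 well (edgeR adjusted p = 0.00259 and 0.00542), while C3 in the same bin rose. In the zinc-finger cluster of the other bin, ZNF714 measured 15.2, 13.8 and 12.5 CPM in Empty and 10.1, 9.44 and 9.22 CPM in Z5 and fell, and ZNF486 measured 0.706, 0.693 and 0.659 CPM in Empty and 1.88, 1.71 and 1.88 CPM in Z5 and rose, without overlap in either (edgeR adjusted p = 0.00154 and 5.4e-05). In the bin on chromosome 1, NFIA, a nuclear factor I gene, changed by -0.39 ± 0.072 on the log2 scale (edgeR adjusted p = 0.00139). That bin was not isolated: every bin of chromosome 1 between 0 and 90 Mb had a median below 0, from -0.047 to -0.11.

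**Figure D5:**
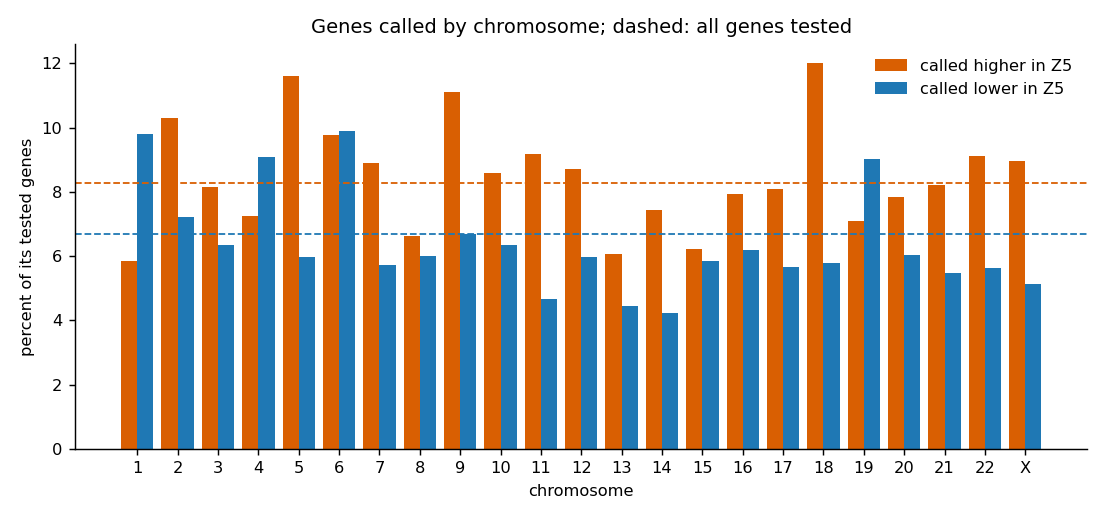
Percent of the tested genes of each chromosome called higher (orange) or lower (blue) in Z5 against Empty; dashed lines mark all genes tested (8.27% and 6.68%). Chromosome 18 has the highest share called higher (12%), and chromosomes 1, 4, 6 and 19 have shares called lower of 9.02% to 9.89%.

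The highest bin medians were those of chromosome 18 from 10 Mb (0.12, with 6 higher and 0 lower of 22), chromosome 5 from 140 Mb (0.12, with 10 higher and 3 lower of 85) and chromosome 9 from 0 Mb (0.11, with 3 higher and 3 lower of 32). TUBB6, a beta-tubulin on chromosome 18, measured 18.6, 21.2 and 19.4 CPM in Empty and 28.3, 26.3 and 29.4 CPM in Z5 (log2 fold change 0.50 ± 0.085 (SE), edgeR adjusted p = 6.3e-04), with all Z5 wells highest. On chromosome 9, VLDLR rose while SMARCA2, an ATPase of the SWI/SNF complex, measured 38.3, 37.1 and 37.4 CPM in Empty and 29.5, 29.5 and 31.7 CPM in Z5 and fell (log2 fold change -0.31 ± 0.056 (SE), edgeR adjusted p = 9.4e-04). Several gene lists held members of the chromosome 19 bin from 0 Mb. Without its 3 members there (NDUFS7, UQCR11 and ATP5D), 2 of 55 respiratory chain genes fell, against 5 of 58 with them. Without UHRF1 and MBD3, 3 of 26 DNA methylation and chromatin remodelling genes fell, against 5 of 28. Without PLIN3, PLIN4 and PLIN5, 3 lipid droplet genes rose and 2 fell of 15. Without C3 and CFD, 11 of 21 complement genes rose, and without UHRF1 and CHAF1A, 25 of 47 S phase genes fell.

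To see where Z5 differed from the other labelled lines, Z5 was tested against each of them directly. The Empty wells do not enter these differences, but all 12 libraries of the fit set the spread. A fit of Z5 and Z9 only called 664 genes between them. Against Z2, 1 of 15289 genes was called by edgeR (0.00654%), DESeq2 called 11, and at an unadjusted p under 0.05 edgeR listed 1571. The gene called by edgeR was GPC4, at 0.0342 ± 0.0150 CPM in Empty and 1.53 ± 0.159 CPM in Z5, and 0.342 ± 0.0988 CPM in Z2 and 1.93 ± 0.0360 CPM in Z9 (log2 2.16 ± 0.23 (SE), edgeR adjusted p = 4.7e-04). Against Z9, 232 genes were called (1.52%), 166 higher (1.09%) and 66 lower (0.432%) in Z5. That count was 44 without Z5 b, 37 without Z5 c, 57 without Z9 a, 86 without Z9 b and 68 without Z9 c, and the count against Z2 was 153 without Z2 a. Of the 166, 29 were called higher and 18 lower against Empty, and 119 were not called there. Of the 66, 7 were called higher and 10 lower against Empty, and 49 were not called. Most genes that set Z5 apart from Z9 thus did not pass the test between Z5 and Empty.

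Cholesterol synthesis genes were among these. In the list of 31, 18 were higher in Z5 than in Z9, 0 lower, and the median difference was 0.46. IDI1, an isomerase of the pathway, had 166 ± 10.7 CPM in Empty and 169 ± 11.6 CPM in Z5, and 161 ± 7.69 CPM in Z2 and 104 ± 10.3 CPM in Z9 (log2 0.70 ± 0.073 (SE), edgeR adjusted p = 1.3e-04), and ACAT2, an acetyl-CoA acetyltransferase, had 222 ± 15.1 CPM in Empty and 210.0 ± 14.05 CPM in Z5, and 186 ± 16.3 CPM in Z2 and 133 ± 5.11 CPM in Z9 (log2 0.66 ± 0.069 (SE), edgeR adjusted p = 1.3e-04). In both genes Z9 was the lowest line, and the Z5 and Empty wells overlapped. Of 31 fatty acid and triglyceride synthesis genes, 9 were higher in Z5 than in Z9 and 0 lower. Genes that changed against Empty and also differed from Z9 were PRKD1, at 1.64 ± 0.468 CPM in Empty and 7.14 ± 0.0944 CPM in Z5, and 6.37 ± 0.556 CPM in Z2 and 3.97 ± 0.171 CPM in Z9 (log2 0.85 ± 0.13 (SE), edgeR adjusted p = 0.00408), COL2A1, at 23.7 ± 1.03 CPM in Empty and 46.6 ± 2.95 CPM in Z5, and 37.6 ± 5.11 CPM in Z2 and 31.7 ± 3.01 CPM in Z9 (log2 0.55 ± 0.089 (SE), edgeR adjusted p = 0.00541), and ARG2, at 64.2 ± 2.12 CPM in Empty and 74.0 ± 1.42 CPM in Z5, and 85.3 ± 1.34 CPM in Z2 and 90.2 ± 0.864 CPM in Z9 (log2 -0.29 ± 0.045 (SE), edgeR adjusted p = 0.00408). CXCL16, a membrane-bound chemokine, had 167 ± 2.24 CPM in Empty and 207 ± 4.51 CPM in Z5, and 237 ± 9.90 CPM in Z2 and 251 ± 1.91 CPM in Z9 (log2 -0.27 ± 0.047 (SE), edgeR adjusted p = 0.00744).

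For 4 of the genes with the largest changes above the floor against Empty, the other lines are given side by side. Each line was compared with the same 3 Empty wells, so these comparisons are not independent. PLG had 18.5 ± 1.49 CPM in Z2 and 21.7 ± 0.612 CPM in Z9, beside 22.4 ± 1.64 CPM in Z5. LAMC3 had 2.28 ± 0.342 CPM in Z2 and 1.76 ± 0.279 CPM in Z9, beside 1.79 ± 0.189 CPM in Z5. VCAN had 58.6 ± 3.68 CPM in Z2 and 54.8 ± 1.69 CPM in Z9, beside 51.8 ± 1.24 CPM in Z5. IGFBP2 had 36.4 ± 2.03 CPM in Z2 and 39.8 ± 8.87 CPM in Z9, beside 39.0 ± 5.27 CPM in Z5. None of these 4 differed between Z5 and Z2 or between Z5 and Z9 past the threshold, with edgeR adjusted p of at least 0.408. ZHX2 had 116 ± 10.2 CPM in Z2 and 94.2 ± 3.30 CPM in Z9, and its difference between Z5 and Z9 did not pass the test (log2 0.20 ± 0.061 (SE), edgeR adjusted p = 0.112).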

How the data were processed

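Total RNA of 12 wells, 3 for each of 4 HepG2 lines, was sequenced. The authors deposited raw counts per gene, made with STAR and featureCounts on hg38 per the submitters' processing notes. The sources used here do not give versions, annotation, strand setting or the treatment of reads that match several genes, so paralogs and overlapping or antisense genes are uncertain. Wells were grouped by the labels. Column sums are 50864744 to 65428204 counts in the 6 wells compared.

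Counts were tested in R 4.3.3 with edgeR 4.0.16: a low-count filter by group (filterByExpr, minimum count 10), TMM scaling, robust quasi-likelihood fits of all 12 libraries with 4 line means, and Benjamini-Hochberg adjustment over 15289 genes. A gene was called at an adjusted p under 0.05. Levels are CPM of the TMM-scaled library size, and log2 levels add a prior count of 2. The fit was tested on simulated data. Alternatives were DESeq2 1.42.0, its size factors, other filters, a replicate block, the 2 lines only, and leaving out each well. Python 3.11.15 with pandas 2.3.3 summarised 44 gene lists, chromosomes and promoters, and matplotlib 3.10.9 drew the figures.

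The members and lists were chosen with earlier results of these data known. Named genes were ZHX1, ZHX2 and ZHX3, the 15 largest protein-coding rises and falls with a mean log2 CPM of 1 or more, genes at 3 or fewer counts in 1 line and 60 or more in the other, the 6 members of each list with the lowest p, the top 6 each way against Z9 and Z2, 4 noncoding genes each way with the same floor and 4 genes per described bin. Naming mainly members whose call was kept with any well left out was decided after values were seen, as were C6, IGF2, list members in the chromosome 19 bin, PGAM1, ENO1 and LDHA. Of 26485 symbols, 23758 matched RefSeq (GRCh38.p14) directly, 1562 by synonym, and 1165 did not match. Promoter shares of the called genes are not given, because fewer than 80% had a promoter in the table. Results that rest on withheld items are not reported here.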

Additional observations from a re-analysis of the deposited data

Results flagged for a closer look

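Z5 differed from another ZHX3-construct line by a direct test, edgeR's quasi-likelihood test of the difference, in the following genes named by the rule. Against Z2 this was GPC4, higher in Z5 by 2.16 on the log2 scale. Against Z9, cholesterol and lipid synthesis genes were higher in Z5: IDI1 by 0.70, ACAT2 by 0.66, DHCR7 by 0.47, HSD17B7 by 0.44 and ELOVL6 by 0.31. Signalling and matrix genes were higher too, PRKD1 by 0.85, COL2A1 by 0.55, FZD4 by 0.50, DLK1 by 0.37, CEBPD by 0.38 and HMGA2 by 0.26. Further genes higher in Z5 than in Z9 were C19orf80 by 0.57, HMOX1 by 0.44, CPVL by 0.41, ACSS3 by 0.39, CYC1 by 0.35, LYZ by 0.32, GLDC by 0.31 and CFI by 0.23. Lower in Z5 than in Z9 were RPL22L1 (-0.45), AMOTL2 (-0.42), LURAP1L (-0.41), FGB (-0.32), OAS3 (-0.31), ARG2 (-0.29) and CXCL16 (-0.27). The adjusted p of these genes ran from 1.3e-04 to 0.0457.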

How the results depend on the processing

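The count of genes called between Z5 and Empty was 2286, and 1087 to 2349 with 1 well left out (662 to 1293 higher, 418 to 1056 lower). It was 2669 with DESeq2's Wald test, 2300 with DESeq2 size factors, 2192 without the filter, 2212 with a filter of 1 CPM, 3317 (1594 lower) in a fit of the 2 lines only, and 318 with a 2-fold minimum. That count of 318 was 194 with the 1 CPM filter and 235 to 352 with 1 well left out. Z5 against Z2 gave 11 genes with DESeq2 and 1 to 153 with 1 well left out. Z5 against Z9 gave 504 with DESeq2, 664 in a fit of the 2 lines only and 37 to 237 with 1 well left out. Of the named genes of Z5 against Empty, 289 to 305 by setting, none that was called in either fit changed sign. Signs of other genes were not compared. Scaling moved the median of all genes by less than 0.1, and genes called higher were 51.8% to 62.8% of those called. The cause of the drop without Empty a, Z5 b or Z5 c was not tested.

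Between Empty and Z5, deviations of wells of the same letter (a, b, c) correlated at 0.12, -0.021 and -0.031. Those of different letters correlated at -0.070 to 0.095, and Z2 and Z9 were not examined. With a replicate block 2823 genes were called between Z5 and Empty, against 2286 without it, and 488 between Z5 and Z9, against 232. These values do not settle whether wells of the same letter pair.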
